A study of Mus musculus with 7 samples.

Results

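The calcium and NFAT pathway of the T cell was examined through 8 genes: Stim1, Orai1, Ppp3ca, Ppp3cb, Nfatc1, Nfatc2, Nfatc3 and Rcan1. They were taken as the non-control probes whose gene name in the scanner files equalled one of these symbols, which gave 14 probes of 55681 on the array. All 8 genes were among the 14620 genes tested. The samples were mouse lymph node CD8 T lymphocytes, given as OT-1het on a Rag-/- background, so that they carry the OT-1 receptor for the ovalbumin peptide SIINFEKL. The 3 Lck-/- samples came from cells in which an inducible Lck had been switched off (OFF) by 7 days without dietary doxycycline, and the 4 WT samples carried no stated Lck change. All 7 samples were cultured for 24 h with 100 nM SIINFEKL, frozen, and read on 1-colour microarrays. No resting samples were among them, so the values describe activated cells only. The labels name no promoter for the inducible Lck, give neither the ages of the mice nor any purification of the lymphocytes, and state no doxycycline feeding for the WT samples, so feeding and loss of Lck cannot be told apart.

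In a T cell, Lck starts receptor signalling, which leads to the release of calcium from the endoplasmic reticulum. STIM1 senses the emptied store and opens ORAI1, the calcium channel of the plasma membrane. The incoming calcium acts through calmodulin on calcineurin, a phosphatase whose catalytic subunits are encoded by Ppp3ca and Ppp3cb, and calcineurin strips phosphate from NFAT factors, which then enter the nucleus. RCAN1 binds and regulates calcineurin, and its gene is itself an NFAT target. Most of this control acts on proteins, and calcium flux, phosphatase activity and the location of NFAT were not measured here: the arrays measured RNA.

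The 5 sequences below are promoter windows searched for a short NFAT core and probes of the array. Rcan1 has 2 annotated starts, of which the internal one is known as the calcineurin-responsive start. In RefSeq's GRCm38.p6 windows, running from 250 bases before to 50 after each start, the 5-letter NFAT core GGAAA was sought on both strands and is in capitals, with TTTCC marking the reverse strand. The first 2 lines compare the distal start (chr16:92466120-92466419, minus strand) and the internal start (chr16:92400029-92400328, minus strand), and the last line shows Il2 (chr3:37125905-37126204, minus strand), the gene of the classic NFAT-driven cytokine.
Rcan1 distal start: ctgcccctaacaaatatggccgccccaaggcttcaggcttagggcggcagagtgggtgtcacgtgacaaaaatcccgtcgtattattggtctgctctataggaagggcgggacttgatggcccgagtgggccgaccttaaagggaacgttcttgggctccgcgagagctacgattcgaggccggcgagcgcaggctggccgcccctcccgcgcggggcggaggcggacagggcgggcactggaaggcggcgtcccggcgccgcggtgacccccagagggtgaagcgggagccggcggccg
Rcan1 internal start: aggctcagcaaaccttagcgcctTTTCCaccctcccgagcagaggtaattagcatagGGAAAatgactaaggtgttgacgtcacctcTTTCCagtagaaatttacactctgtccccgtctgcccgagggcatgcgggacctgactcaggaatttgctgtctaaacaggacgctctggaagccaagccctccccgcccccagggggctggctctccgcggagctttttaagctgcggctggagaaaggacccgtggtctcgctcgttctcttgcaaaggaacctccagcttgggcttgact
Il2 start: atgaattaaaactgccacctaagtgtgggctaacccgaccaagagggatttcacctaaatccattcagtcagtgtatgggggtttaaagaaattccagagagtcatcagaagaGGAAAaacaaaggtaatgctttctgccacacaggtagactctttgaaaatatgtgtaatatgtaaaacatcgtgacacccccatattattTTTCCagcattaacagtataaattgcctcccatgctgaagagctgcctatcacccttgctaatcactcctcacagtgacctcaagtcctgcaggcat
The distal Rcan1 window held 0 cores, the internal one 3 and the Il2 window 2. The core is short and common: 61.3% of 32851 promoter windows held at least 1, 26.7% at least 2 and 9.42% at least 3. Windows were matched for 6 of the 8 genes, and 5 of their 9 windows held a core. The Ppp3cb window held 4, the 2 Nfatc2 windows 3 and 1, the 2 Nfatc3 windows 1 and 0, and the Orai1 and Stim1 windows 0. These matches are letters in a window, not measured binding.

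The other 2 sequences are probes that lie in coding sequence of the Rel homology region, the part of an NFAT factor that binds DNA. Neither is the probe that represents its gene. Both are given in the sense direction, on mm9 as in the files. The Nfatc2 probe A_52_P628171 lies at chr2:168361757-168361816 (minus strand) and the Nfatc3 probe A_52_P333419 at chr8:108615965-108616024 (plus strand).
Nfatc2 A_52_P628171: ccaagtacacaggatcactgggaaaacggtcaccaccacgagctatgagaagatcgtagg
Nfatc3 A_52_P333419: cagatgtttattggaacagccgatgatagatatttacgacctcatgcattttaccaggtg

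The labels of 2 arrays are in doubt. The only Lck probe read 8.02, 6.21 and 6.17 on the arrays labelled Lck-/-, against 7.44, 7.67, 7.36 and 6.04 on those labelled WT, so Lck-/- 1 and WT 4 went against their labels. Correlations across genes ran the same way for WT 4, at 0.991 with Lck-/- 2 and 0.989 with Lck-/- 3. With the other WT arrays WT 4 correlated at 0.983 to 0.985. For Lck-/- 1 they were mixed: highest with WT 3, at 0.9895, then with Lck-/- 3, at 0.9857. It correlated at 0.982 to 0.984 with the other WT arrays and at 0.981 with Lck-/- 2. WT 3 and Lck-/- 1 also had the most flagged spots, 1549 and 557, and the highest shares of spots well above background. Whether this bears on their correlation was not tested. If Lck-/- 1 and WT 4 had been exchanged, every difference given here would change, and whether they were was not tested. Which segment of Lck was removed is not stated either. Groups are therefore the arrays as labelled, and values without Lck-/- 1 and WT 4 are given for all 8 genes and for some of the others.

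None of the 8 genes differed between arrays labelled Lck-/- and WT beyond the spread between arrays. Every value below is the log2 signal relative to the 75th percentile of its array, so that 0 is the 75th percentile, and every difference is Lck-/- minus WT on that scale. With limma, 0 of the 8 genes and 0 of the 14 probes passed an adjusted p of 0.05, where 0% of all 14620 genes and 0% of all 29202 probes passed. At an unadjusted p under 0.05 there were also 0 of the 8 genes and 0 of the 14 probes, against 7.08% of all genes and 6.83% of all probes. The groups overlapped for every one of the 8 genes and of the 14 probes, while 7.16% of all genes and 7.5% of all probes had groups that did not overlap. All 14 probes were well above background on all 7 arrays. In RNA from a whole cell population, fewer cells of a type and less RNA per cell cannot be told apart.

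For the 7 arrays as labelled and on this scale, the intervals show how large a difference could have been hidden, each gene taken singly. Over the 8 genes the 95% intervals ran from -0.63 to 0.68, or from 0.647-fold to 1.60-fold, and over the 14 probes from 0.606-fold to 1.61-fold. Adjusted p-values ran from 0.890 to 0.994. The median difference of the 8 genes was -0.02, beside 0.04 for all genes tested, and the median size of their differences was 0.08, beside 0.15. With the 75th percentile as reference 3 of the 8 differences were above 0 and 5 below. Quantile normalization, with normexp or without, gave 4 and 4, and the median of each array as reference gave 0 and 8, so the signs depended on the scaling. Without Lck-/- 1 and WT 4 the 8 differences ran from -0.25 (Ppp3cb) to 0.47 (Ppp3ca, limma adjusted p = 0.505), and 0 of the 8 passed the threshold. Over the whole array 58 of 14620 genes passed there, so 0 of 8 does not set these genes apart.

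**Figure D1:**
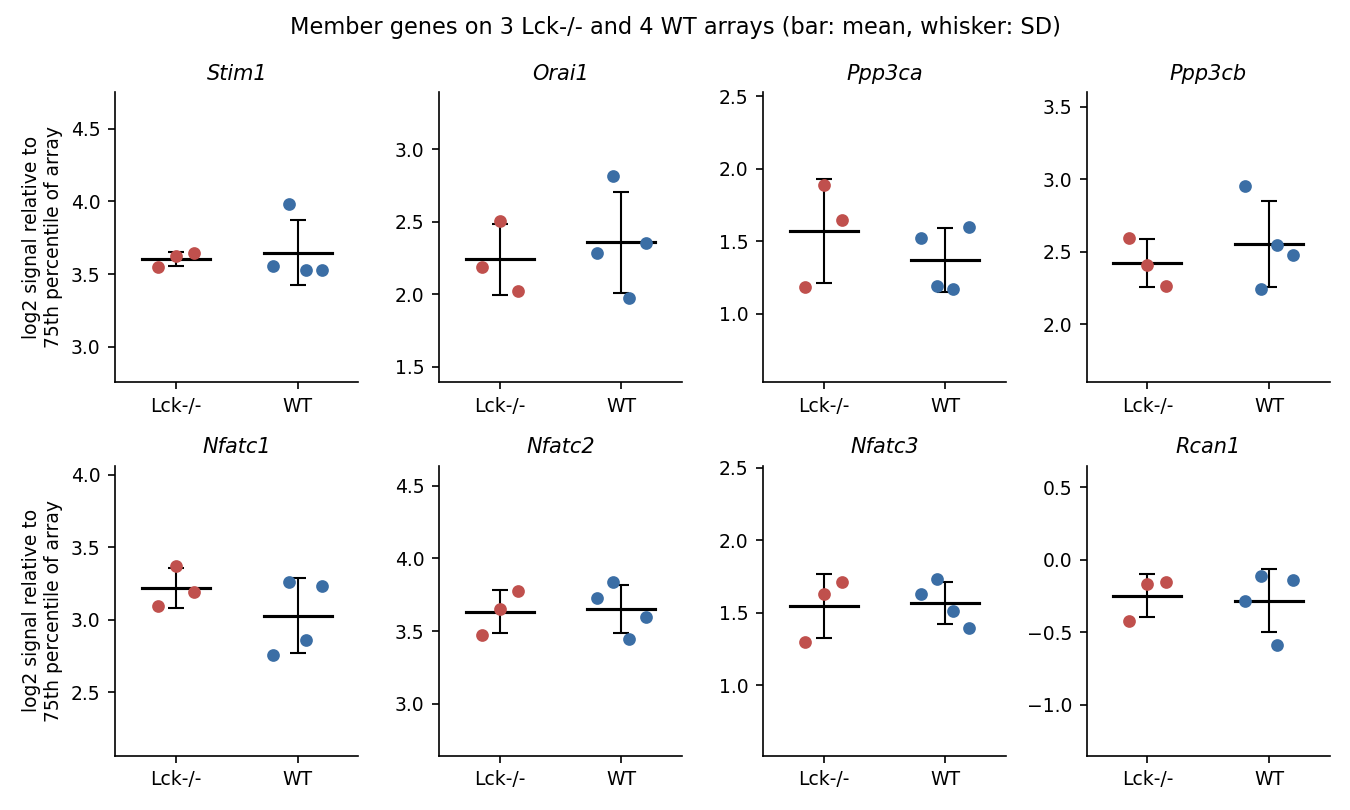
Each panel plots 1 gene, with the log2 signal relative to the 75th percentile of the array on the vertical axis, over a span of 2 log2 units in every panel, for 3 Lck-/- arrays (left) and 4 WT arrays (right); points are arrays, horizontal bars are means and whiskers are SD. The groups overlap in every panel, and 1 WT array stands above the other Stim1 values.

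Stim1 encodes the sensor of the calcium store. Its probe A_55_P1969750 (chr7:109585303-109585362, plus strand, mm9) read 3.55, 3.62 and 3.64 on the 3 Lck-/- arrays, against 3.55, 3.98, 3.53 and 3.53 on the 4 WT arrays. The Lck-/- values lay inside the range of the WT values, and 1 WT array, WT 2, was higher than the other 6. The means were 3.61 ± 0.05 (SD, n = 3) in Lck-/- and 3.65 ± 0.22 (SD, n = 4) in WT. The difference was -0.04 (SE 0.16, 95% interval -0.41 to 0.32, limma adjusted p = 0.989). A second Stim1 probe, A_55_P2022342, shares 51 of its 60 bases with the first and gave a difference of -0.02, so the pair counts as close to 1 measurement.

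Orai1 encodes the pore of the channel that STIM1 opens. Its probe A_55_P2147276 (chr5:123479844-123479903, plus strand) read 2.19, 2.51 and 2.02 in Lck-/-, against 2.29, 2.81, 1.97 and 2.35 in WT. The highest and the lowest array were both WT, and the Lck-/- values fell between them. Means of 2.24 ± 0.24 in Lck-/- and 2.36 ± 0.35 in WT gave a difference of -0.12 (SE 0.22, 95% interval -0.63 to 0.39, limma adjusted p = 0.967). The second Orai1 probe, A_66_P106072 (chr5:123480377-123480436), differed by -0.18, with an interval of -0.72 to 0.37. Orai1 varied most of the 8 genes, with a range over the 7 arrays of 0.84 that was wider than that of 61.1% of all genes.

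With the 75th percentile as reference, the 2 calcineurin genes gave differences of opposite sign. Ppp3ca encodes the alpha isoform of the catalytic subunit. Probe A_55_P1952738 (chr3:136598682-136598741, plus strand) read 1.18, 1.89 and 1.64 in Lck-/-, against 1.53, 1.20, 1.17 and 1.60 in WT. Lck-/- 2 and Lck-/- 3 lay above all WT arrays, and Lck-/- 1 lay among the lowest. The means were 1.57 ± 0.36 in Lck-/- and 1.37 ± 0.22 in WT, a difference of 0.20 (SE 0.21, 95% interval -0.28 to 0.68, limma adjusted p = 0.906). This was the largest of the 8 differences. With the median as reference it was -0.01. Without Lck-/- 1, whose Lck signal goes against its label, it was 0.39, with no p past the threshold, and without Lck-/- 2 it was 0.04. The groups no longer overlapped without Lck-/- 1, but with fewer arrays such separation is more frequent by order alone. The share of all genes without overlap at that setting is not given here.

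Ppp3cb encodes the beta isoform of the same subunit, known from mouse knockouts to be needed for T cell responses. Its probe A_52_P306396 (chr14:21319265-21319324, minus strand) read 2.59, 2.41 and 2.26 in Lck-/-, against 2.96, 2.25, 2.55 and 2.48 in WT. All 3 Lck-/- values lay between the lowest and the highest WT value. The means were 2.42 ± 0.17 in Lck-/- and 2.56 ± 0.30 in WT, and the difference was -0.13 (SE 0.19, 95% interval -0.58 to 0.31, limma adjusted p = 0.945). Single arrays decided its size, which was -0.0004 without WT 1, -0.055 without Lck-/- 3, -0.24 without WT 2 and -0.22 without Lck-/- 1.

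The NFAT factors themselves were all 3 measured by more than 1 probe. Nfatc1 is the NFAT gene that is itself induced when T cells are activated, and it makes short and long proteins by the use of different 3′ ends. The probe A_51_P517870 (chr18:80803664-80803723, minus strand, listed under NM_198429) read 3.09, 3.37 and 3.19 in Lck-/-, against 2.76, 3.26, 2.86 and 3.23 in WT. WT 1 and WT 3 were the 2 lowest arrays, while WT 2 and WT 4 lay among the Lck-/- arrays. The means were 3.22 ± 0.14 in Lck-/- and 3.03 ± 0.26 in WT, a difference of 0.19 (SE 0.18, 95% interval -0.22 to 0.60, limma adjusted p = 0.890). With the median as reference the difference was -0.02. Leaving out 1 array moved it to as little as 0.10 (without WT 1) or 0.11 (without Lck-/- 2). It rose to as much as 0.27 (without WT 2), and without both Lck-/- 1 and WT 4 it was 0.32.

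The second Nfatc1 probe, A_51_P220135 (chr18:80845439-80845498, listed under NM_016791), lies 41775 bases upstream along the gene. It read 2.76, 2.78 and 2.55 in Lck-/-, against 2.56, 2.80, 2.43 and 2.79 in WT, a difference of 0.05. Which Nfatc1 transcripts each probe reads was not worked out, so the gap between the 2 probes is not a readout of 3′ end use. The downstream minus the upstream probe was 0.33, 0.59 and 0.65 in Lck-/-, against 0.20, 0.46, 0.43 and 0.45 in WT. The means were 0.52 ± 0.17 in Lck-/- and 0.39 ± 0.13 in WT. The gap between them, 0.14, did not pass an exact permutation test (two-sided p = 0.229, adjusted p = 0.857 over 7 probe pairs). With 3 arrays against 4 that test cannot give a p under 0.0571. The other 6 probe pairs, in Stim1, Orai1, Nfatc2 and Nfatc3, gave exact permutation p-values from 0.514 to 0.857. Since no pair could have passed 0.05, these p-values say nothing of whether the balance of probes differed.

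Nfatc2 encodes NFAT1, the factor that is already present in resting T cells. Probe A_55_P1967978 (chr2:168301974-168302033, minus strand, listed under NM_001136073) read 3.48, 3.65 and 3.78 in Lck-/-, against 3.73, 3.84, 3.45 and 3.60 in WT. The 7 values interleaved. Nfatc2 was the steadiest of the 8 genes, with a range of 0.39 over the 7 arrays, and only 9.75% of all genes had a smaller one. Means of 3.63 ± 0.15 in Lck-/- and 3.65 ± 0.17 in WT gave a difference of -0.02 (SE 0.15, 95% interval -0.37 to 0.33, limma adjusted p = 0.994). The Rel homology probe of Nfatc2 shown above read -2.69, -3.02 and -2.91 in Lck-/-, against -3.18, -2.67, -3.17 and -2.64 in WT. This probe was dim, with a processed signal of 48 to 78 over the 7 arrays, against 5048 to 6709 for A_55_P1967978. Its difference was 0.04, and its groups overlapped as well. Why the levels of the 2 probes were so unlike was not tested.

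Nfatc3 encodes NFAT4, which is also known for its part in thymocyte development. Its probe A_66_P117659 (chr8:108654316-108654375, plus strand) read 1.30, 1.63 and 1.71 in Lck-/-, against 1.63, 1.73, 1.51 and 1.40 in WT. The lowest array was Lck-/- 1 and the highest WT 2, with the others between them. The means were 1.55 ± 0.22 in Lck-/- and 1.57 ± 0.14 in WT, a difference of -0.02 (SE 0.16, 95% interval -0.39 to 0.35, limma adjusted p = 0.994). The Rel homology probe A_52_P333419 differed by -0.10 and another probe, A_55_P2184429 (chr8:108643263-108643322), by 0.05. The 3 Nfatc3 probes thus stood on both sides of 0, each within its interval.

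Rcan1 is the one gene of the 8 that is widely used as a transcript readout of NFAT activity. Its only probe, A_52_P617327 (chr16:92392763-92392822, minus strand, listed under NM_019466), read -0.42, -0.17 and -0.16 in Lck-/-, against -0.28, -0.11, -0.59 and -0.14 in WT. The Lck-/- values lay within the WT range, whose ends were WT 2 and WT 3. The means were -0.25 ± 0.15 in Lck-/- and -0.28 ± 0.22 in WT, a difference of 0.03 (SE 0.17, 95% interval -0.35 to 0.41, limma adjusted p = 0.991). Whether this probe reads transcripts from both of the starts shown above was not analysed here.

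**Figure D2:**
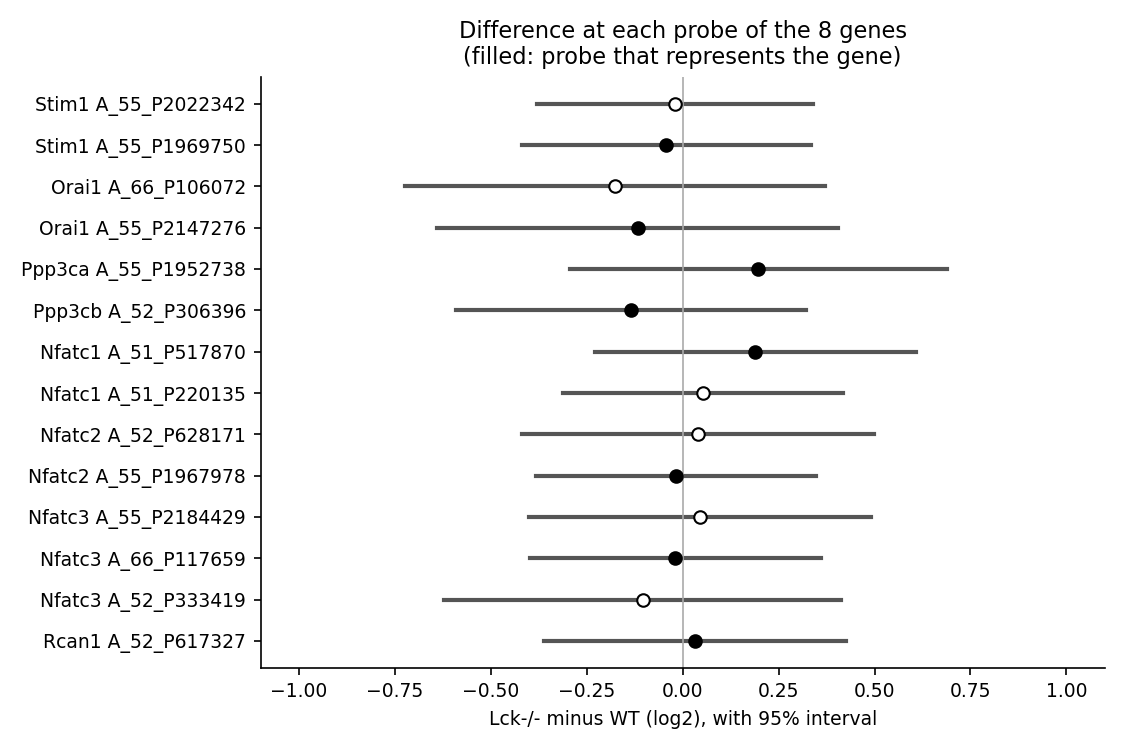
The horizontal axis is the difference Lck-/- minus WT in log2 units and each row is 1 of the 14 probes of the 8 genes, with points for differences and lines for 95% intervals from the limma fit over all probes; filled points are the probes that represent their gene. Every interval spans 0, and the widest reaches from -0.72 to 0.37 at an Orai1 probe.

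Over the 7 arrays the ranges of the 8 genes ran from 0.39 to 0.84 with a median of 0.54, beside a median of 0.71 for all genes, and 6 of the 8 ranges lay below that median, Ppp3cb by little. Ppp3ca and Orai1 lay above it. The arrays did not contribute equally. WT 2 was the highest array for 5 of the 8 genes (Stim1, Orai1, Nfatc2, Nfatc3 and Rcan1) and WT 3 the lowest for 4 (Orai1, Ppp3ca, Nfatc2 and Rcan1). Quantile normalization left both counts at 5 and 4, but in the authors' deposited table they were 2 and 1. With the median as reference, Lck-/- 1 became the lowest array for all 8 genes. The order of single arrays therefore depended on the scaling.

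For the 2 genes that ranged most, the nearest genes were sought among 13960 others with a value on every array, by the root mean square difference of mean-centred log2 values over the 7 arrays. Nearest to Orai1 were Tmem120a (0.067), Rad51d (0.068) and Hipk4 (0.068). All of them had their highest value on WT 2, and the differences of the 3 genes were -0.11, -0.11 and -0.09. Nearest to Ppp3ca were Mapkapk3, a kinase of the p38 pathway (0.041), Mbd2, a reader of methylated DNA (0.048), and Tmem234 (0.056). These had their highest value on Lck-/- 2, and their differences were 0.23, 0.19 and 0.15. With only 7 arrays, and one scaling shared by all genes of an array, such likeness is a description.

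**Figure D3:**
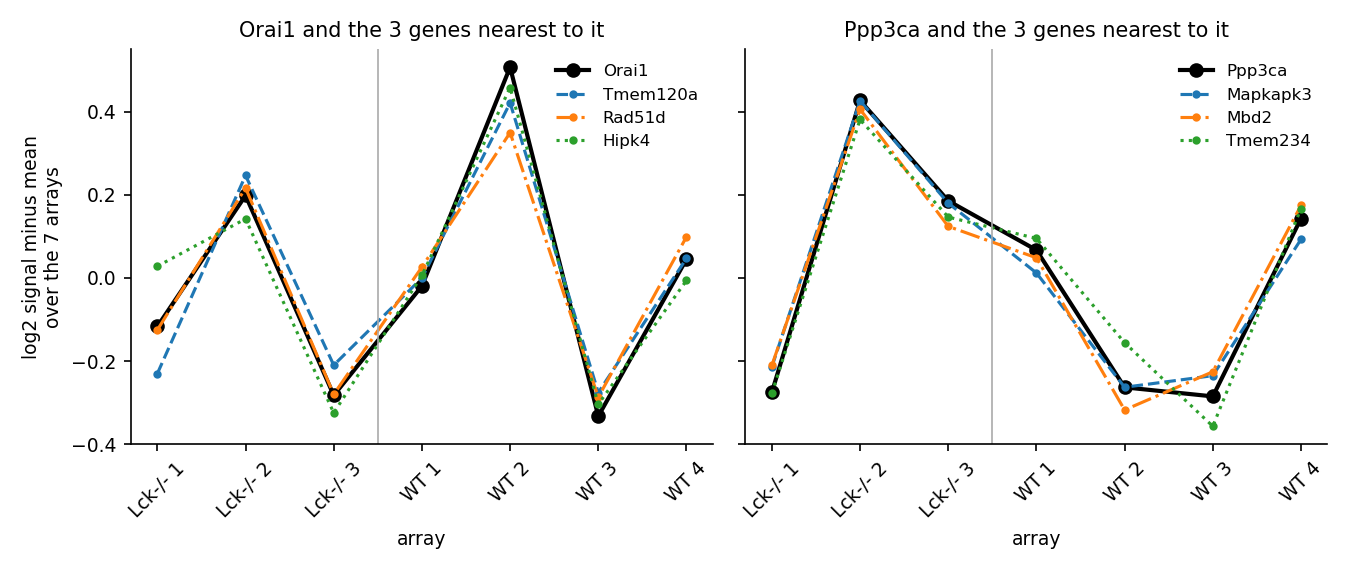
The horizontal axis gives the 7 arrays, Lck-/- left of the grey line and WT right of it, and the vertical axis the log2 signal minus the gene's mean over the arrays; black lines are Orai1 (left panel) and Ppp3ca (right panel) and coloured lines their 3 nearest genes. The Orai1 group peaks on WT 2 and the Ppp3ca group on Lck-/- 2.

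The wider pathway was described through 6 lists of 74 genes, of which 69 were tested. None of the 69 passed the adjusted threshold (0% of all genes did), 2 had an unadjusted p under 0.05, and the smallest adjusted p was 0.609. There were 38 differences above 0 and 31 below, with a median of 0.02. In 2 of the 69 genes, or 2.90%, the groups did not overlap, against 7.16% of all genes. These counts are near or under those of the whole array.

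In the list of store-operated calcium entry and calcium stores, 16 of 17 genes were tested, with 11 differences above 0, 5 below and a median of 0.07. Saraf, which closes the store-operated channel, differed by 0.04, and Kcnn4, the calcium-gated potassium channel that sustains calcium entry, by 0.24. The inositol trisphosphate receptor Itpr3 differed by 0.27. Cracr2a, a regulator of ORAI1, had the largest difference, 1.09 (SE 0.49, limma adjusted p = 0.713), but its probe was well above background on only 2 Lck-/- arrays and 1 WT array. The size of the Cracr2a difference depended on the processing: 0.18 with normexp before quantile normalization and 0.18 in the deposited table.

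Among calcineurin partners, 9 of 10 genes were tested, with 7 differences above 0, 2 below and a median of 0.15. Fkbp1a, whose protein carries the drug FK506 to calcineurin, differed by 0.34 (SE 0.37). Akap5, an anchor for calcineurin, differed by 0.65 (SE 0.48), with its probe well above background on 2 arrays of each group. Leaving out Lck-/- 2 gave 0.21 for Akap5, leaving out WT 1 gave 0.40 and leaving out Lck-/- 3 gave 1.14. With normexp before quantile normalization Akap5 differed by 0.10, and in the deposited table by 0.11. The list of other NFAT factors and of NFAT export had 10 of 11 genes tested, 2 above 0 and 8 below, with a median of -0.20. The export kinases Gsk3a and Csnk1a1 differed by -0.10 and -0.19, and Nfatc2ip, an NFAT-interacting protein gene, by -0.29 (SE 0.15, limma adjusted p = 0.756). Lrrk2 differed by -1.11 (SE 0.70), with its probe well above background on 1 Lck-/- and 2 WT arrays. It was -0.57 without Lck-/- 3 and -1.79 without Lck-/- 1. With normexp before quantile normalization Lrrk2 differed by -0.24, and in the deposited table by -0.29.

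The 7 genes of mitochondrial calcium uptake were all tested, with 6 differences above 0, 1 below and a median of 0.12. Smdt1, a subunit of the mitochondrial calcium uniporter, differed by 0.14, Mcub, its inhibitory pore subunit, by 0.19, and Letm1 by 0.01. Of 6 calmodulin kinase genes 5 were tested, with 2 differences above 0, 3 below and a median of -0.05. Camkk2, which activates other calmodulin kinases, differed by -0.15, and Camk2g by 0.17. These signs depended on the scaling: centring each array on its median instead shifted the median difference of all genes to -0.16, and the differences above 0 numbered 5 of 16 for calcium entry, 3 of 9 for calcineurin partners, 0 of 10 for NFAT export, 0 of 7 for mitochondrial uptake, 0 of 5 for the kinases and 6 of 22 for the NFAT targets described next.

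**Figure D4:**
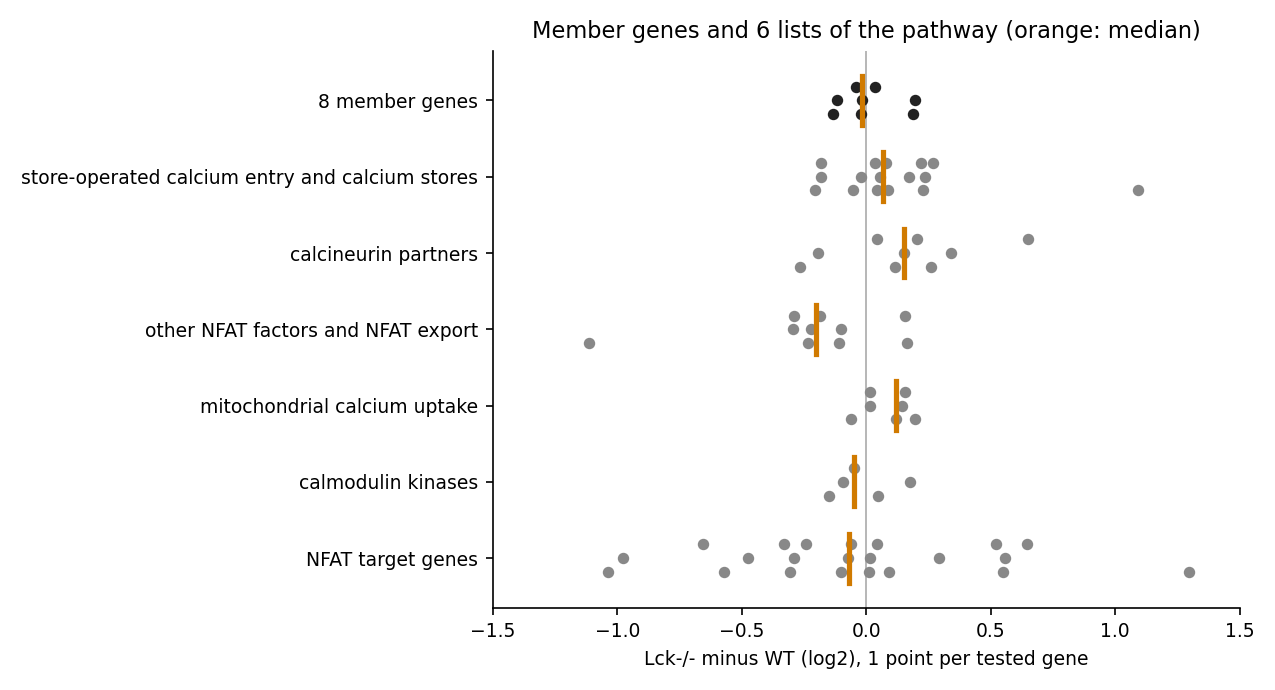
The horizontal axis is the difference Lck-/- minus WT in log2 units, each point is 1 tested gene and each row is the set of 8 genes or 1 of the 6 lists, with orange bars for medians; the vertical scatter within a row has no meaning. The 8 genes sit within 0.20 of 0, and the NFAT target genes spread from -1.04 to 1.29.

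The differences of NFAT target genes were spread more widely than those of the pathway genes, given as a description with no test. Of 22 tested of 23, 10 differences were above 0 and 12 below, with a median of -0.07, and 9 were larger than 0.5 in either direction, against 3 of 47 genes in the other 5 lists and 12.6% of all genes. Their spread between arrays was also wider, with a median SE of 0.36, and none passed the adjusted threshold. Several of these genes also respond to other signals, and which of them depend on NFAT in these cells was not measured.

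Il2, the cytokine gene with the promoter shown above, read 2.37, 3.59 and 2.79 in Lck-/-, against 2.93, 4.69, 3.88 and 4.32 in WT. Lck-/- 1 was the lowest of the 7 arrays, but WT 1 lay among the Lck-/- values. The means were 2.92 ± 0.62 in Lck-/- and 3.96 ± 0.76 in WT, a difference of -1.04 (SE 0.45, 95% interval -2.07 to -0.01, limma adjusted p = 0.699). The difference did not pass over all genes, and without Lck-/- 1 and WT 4 it was -0.64.

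Il2ra, the gene of the alpha chain of the interleukin 2 receptor, read 6.297, 5.995 and 6.197 in Lck-/-, against 6.811, 6.514, 6.324 and 6.322 in WT. The 3 Lck-/- arrays all lay below the 4 WT arrays, by little at the nearest pair. The difference was -0.33 (SE 0.17, limma adjusted p = 0.756). The other target whose groups did not overlap was Pdcd1, the gene of the inhibitory receptor PD-1, which falls outside the naming rule and was picked after its values were seen. It read 2.53, 3.03 and 2.38 in Lck-/-, against 3.72, 4.29, 3.05 and 3.44 in WT. Every Lck-/- array was below every WT array, and the difference was -0.98 (SE 0.30, limma adjusted p = 0.609). Groups with Lck-/- below WT on every array occurred for 2.15% of all genes.

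Csf2, the gene of the cytokine GM-CSF, read -0.24, 1.29 and 2.01 in Lck-/-, against -1.71, -0.90, 0.28 and 1.22 in WT. Lck-/- 2 and Lck-/- 3 were the highest arrays and Lck-/- 1 lay among the WT arrays, with a difference of 1.29 (SE 0.76, limma adjusted p = 0.791). Csf2 differed by 0.80 without Lck-/- 3, 0.82 without WT 1 and 1.92 without Lck-/- 1, and by 2.42 without both Lck-/- 1 and WT 4. Ccl4, a chemokine gene, read 6.15, 7.49 and 7.10 in Lck-/-, against 6.15, 7.71, 6.71 and 7.39 in WT, a difference of -0.07 (SE 0.44). The NFAT targets named here therefore had differences on both sides of 0, none of them past the adjusted threshold.

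**Figure D5:**
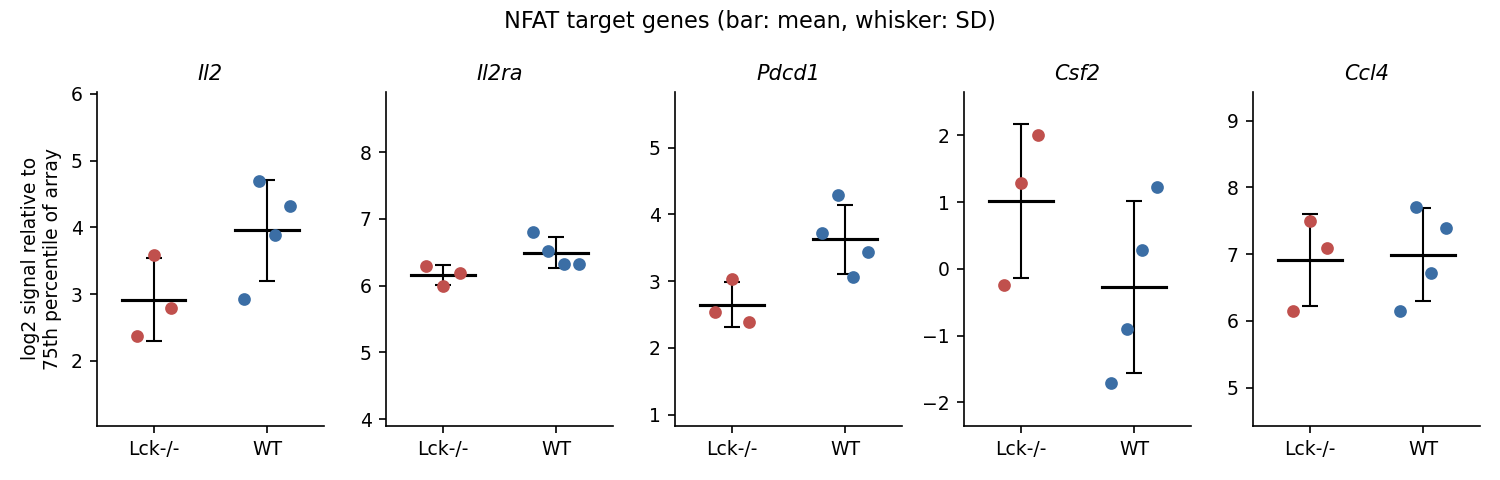
Each panel plots 1 NFAT target gene, with the log2 signal relative to the 75th percentile of the array over a span of 5 log2 units, for 3 Lck-/- arrays (left) and 4 WT arrays (right); bars are means and whiskers are SD. Il2ra and Pdcd1 have no overlap between groups, with Lck-/- below WT, while Il2, Csf2 and Ccl4 overlap.

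The share of spots well above background ran from 46.57% to 61.06%, and 0 spots were saturated. Markers of each cell type were summed on each array, and 0 of their genes passed the adjusted threshold. All 7 CD8 T cell markers were tested, with all 7 differences above 0 and a median of 0.21, though 4 of 7 with the median as reference. Their summed log2 signal ran from 8.73 to 9.23 in Lck-/- and from 8.14 to 8.88 in WT. The 8.14 is WT 3, where Cd3e had no value and was left out of the sum. The other WT arrays ran from 8.60 to 8.88. Of 8 NK cell genes 7 were tested, with all 7 differences above 0, a median of 1.05 and 0 at an unadjusted p under 0.05. The size depended on the processing: the median was 0.38 with normexp before quantile normalization and 0.35 in the deposited table, with all 7 above 0 in each. Ncr1 and Klrb1c were well above background on only 2 WT arrays. The summed log2 signal of the NK cell genes was 1.44, 3.30 and 1.89 in Lck-/-, against 0.64, 1.61, -0.36 and 2.70 in WT, so the groups overlapped, with WT 4 above 2 of the Lck-/- arrays. The -0.36 is WT 3, where Fcer1g had no value and was left out of the sum.

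Of 5 B cell genes 2 were tested, Cd79a and Cd79b, with differences of 0.48 and 0.53, and their sum ran from 0.63 to 1.17 in Lck-/- and from -0.12 to 0.78 in WT. The -0.12 is WT 3, where Cd79a had no value and the sum is Cd79b alone. Of 5 dendritic cell genes 4 were tested, all with differences above 0 and a median of 0.31, and the sum ran from 7.33 to 8.04 in Lck-/- and from 7.18 to 7.61 in WT. That sum was almost all Siglech, which read 7.17 to 8.04 over the arrays, while the other tested genes read below 0 on every array. The 5 macrophage or monocyte genes gave 4 differences above 0 and a median of 0.21, with a sum from 3.55 to 4.16 in Lck-/- and from 3.17 to 3.89 in WT. Itgam was the brightest of them, and Csf1r had no value on WT 3, where the sum was 3.89. The 3 CD4 T cell genes had a median of 0.09, with a sum from 4.29 to 5.23 in Lck-/- and from 4.23 to 6.58 in WT. Cd4 had no value on Lck-/- 1. On WT 3, where the sum was 6.58, Cd4 read 5.47 and Zbtb7b 5.68. For stromal or endothelial cells 3 of 5 genes were tested, with a median of 0.07 and a sum from -0.51 to -0.08 in Lck-/- and from -0.73 to -0.25 in WT. The part of these cells in the values above was not tested.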

How the data were processed

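RNA from 3 Lck-/- and 4 WT samples was measured, 1 array each; the design text calls them biological replicates. Per the labels' protocols, Cy3 labelling used 50 ng of RNA whose integrity number exceeded 8. Per the file headers, the deposited scanner files are Agilent Feature Extraction output (version 10.7.3.1) of spot intensity, background-subtracted and detrended but not brought to a common scale, since the 75th percentile ran from 353.6 to 615.4 between arrays. The authors also deposited a table of log2 values, which correlated at 0.9994 to 0.9998 with the log2 median signal of the same array. It was used only as an alternative. Its columns had medians from 6.57 to 6.61; its scale and direction are those of log2 signal, and its between-array normalization is not stated in the sources used here. Per the submitters' processing notes, limma was used, with no version or role given.

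The processed signal was put on the log2 scale and each array's 75th percentile over 59305 non-control spots was subtracted. Outlier-flagged spots were left out and spots of a probe were averaged. Probes well above background on at least 3 of 7 arrays were kept, and a gene was represented by its passing probe with the highest mean, a choice that mattered for 4183 genes. Groups were compared with lmFit and eBayes of limma 3.58.1 (R 4.3.3), with two-sided p-values adjusted by Benjamini-Hochberg over all genes or all probes and a threshold of 0.05, and 659 genes lacked at least 1 value. The procedure was tested on simulated data. The number of arrays limits the precision. All arrays shared 1 slide and 1 scan day. Deviations from the group means correlated at 0.105, 0.064 and -0.030 between arrays that share a title number, which were not treated as pairs.

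The alternatives tried were normexp (offset 50), quantile normalization, the deposited table, median centring, no background filter, a filter on all arrays, averaging a gene's probes, blocks, array weights and leaving out arrays. The 8 genes and the lists were chosen with earlier results of these data known. The genes named were all 8, the 2 brightest and 2 most different tested genes of each list, and the 3 genes nearest to the 2 genes of widest range. Of these, 2 are not reported here. Gene names and mm9 coordinates are those of the files; promoter windows came from RefSeq's GRCm38.p6 table.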

Additional observations from a re-analysis of the deposited data

Results flagged for a closer look

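In 1 of the 41 sets of values examined, 1 array stood apart from the rest of its group, and chance alone marks about 1 group in 20. The gap between that array and its nearest neighbour, divided by the range of the group, was set against Dixon's critical value of 0.829 for 4 arrays. The Stim1 probe A_55_P1969750 reached 0.947 in the 4 WT arrays, where WT 2 read 3.98 and the others 3.53 to 3.55.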

How the results depend on the processing

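Over 18 alternatives the 8 genes gave 144 differences, of which 0 passed the adjusted threshold, 119 kept the sign and 25 turned it. These are not independent. Both background filters left all 8 differences unchanged, and so did the mean of a gene's probes for Ppp3ca, Ppp3cb and Rcan1. The title-number block gave the same differences as leaving out WT 4, and the file-name block the same as leaving out WT 2. The lowest adjusted p was 0.505. Centring each array on its median shifted the median difference of all genes from 0.04 to -0.16. The differences that turned sign were then -0.015 for Nfatc1, -0.0075 for Ppp3ca, -0.17 for Rcan1, -0.030 for Camk2g, -0.19 for Letm1, -0.018 for Mbd2, -0.011 for Mcub, -0.16 for Saraf, -0.063 for Smdt1 and -0.059 for Tmem234. The rest of the 8 genes kept their sign and were larger, at -0.34 for Ppp3cb, -0.32 for Orai1, -0.25 for Stim1, -0.22 for Nfatc3 and -0.22 for Nfatc2. The list medians were -0.054 for calcineurin partners, -0.25 for calmodulin kinases, -0.087 for mitochondrial uptake, -0.40 for NFAT export and -0.13 for calcium entry. Quantile normalization gave 0.0018 for Nfatc2 and -0.020 for Letm1, and normexp before it 0.014 for Nfatc2, -0.014 for Letm1 and -0.013 for Saraf. The deposited table gave -0.011 for Letm1 and -0.0082 for Saraf. The mean of a gene's probes gave 0.011 for Nfatc2. Array weights gave 0.011 for Nfatc2, 0.054 for Nfatc3, 0.011 for Ccl4 and -0.12 for Letm1.

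With the title number as a replicate block, 1 gene of the whole array was called, against 0 without it, and the differences were 0.059 for Ccl4 and -0.014 for Saraf. With the number in the file names as a replicate block 1 gene was called, and the differences were 0.068 for Stim1, 0.035 for Orai1, 0.044 for Nfatc2, 0.034 for Nfatc3, 0.17 for Ccl4, 0.050 for Hipk4 and 0.012 for Tmem120a. Neither block called any of the 8 genes.

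With each array left out in turn, called genes ranged from 0 to 1 (1 without WT 1), called probes from 0 to 7 (7 without WT 1), and genes of the 8 whose groups did not overlap from 0 to 1 (Ppp3ca, without Lck-/- 1). The share of all genes without overlap at these settings is not given here. Differences then ranged from -0.083 to 0.068 for Stim1, -0.25 to 0.035 for Orai1, -0.088 to 0.062 for Nfatc2, -0.10 to 0.10 for Nfatc3, -0.069 to 0.12 for Rcan1, -0.36 to 0.31 for Ccl4, -0.024 to 0.74 for Fkbp1a, -0.20 to 0.050 for Hipk4, -0.13 to 0.19 for Letm1, -0.062 to 0.13 for Saraf, -0.27 to 0.012 for Tmem120a and -0.0031 to 0.33 for Tmem234. Values that kept their sign but moved by over 1.5 times, none of them called, ranged from 0.040 to 0.39 for Ppp3ca, -0.24 to -0.0004 for Ppp3cb, 0.099 to 0.27 for Nfatc1, 0.12 to 0.37 for Kcnn4, 0.21 to 1.14 for Akap5, -1.79 to -0.57 for Lrrk2, -0.17 to -0.031 for Gsk3a, -0.28 to -0.12 for Csnk1a1, 0.0050 to 0.29 for Smdt1, 0.014 to 0.38 for Mcub, -0.26 to -0.083 for Camkk2, 0.087 to 0.25 for Camk2g, 0.80 to 1.92 for Csf2, -0.25 to -0.0013 for Rad51d, 0.082 to 0.40 for Mapkapk3 and 0.037 to 0.35 for Mbd2. The median of calcineurin partners ranged from -0.034 to 0.20.

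After the data were seen, Lck-/- 1 and WT 4, whose Lck signal goes against their label, were both left out, which selects arrays by a measured signal. This called 58 of 14620 genes and 47 of 29202 probes of the whole array and none of the 8 genes. The groups of 1 of the 8 (Ppp3ca) no longer overlapped. With fewer arrays such separation is more frequent by order alone, and its share over all genes at this setting is not given here. The differences were 0.043 for Nfatc2, 0.048 for Nfatc3, 0.44 for Ccl4, -0.13 for Letm1, -0.13 for Mcub, -0.032 for Saraf and -0.022 for Smdt1, and the list medians -0.037 for calcineurin partners and -0.066 for mitochondrial uptake. Stim1 was then -0.055, Orai1 -0.094, Nfatc1 0.32, Rcan1 0.17, Ppp3ca 0.47 and Ppp3cb -0.25. Kcnn4 was 0.45 and Nfatc2ip -0.44, while Csf2 was 2.42, Lrrk2 -2.09 and Il2 -0.64. The cause of these changes was not tested.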
